A study of Mus musculus with 6 samples.

Results

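The Serpin family comprised 63 of the 24346 genes in the deposited expression table, chosen as every row whose symbol is Serpin followed by a clade letter from a to i and a number. The genes were measured by RNA sequencing of whole mouse liver, in 3 libraries from med23 f/f mice and 3 from med23Δli mice, each labelled as a separate liver sample. All animals were male C57/BL6 mice, 8 weeks old, and all received an intraperitoneal dose of CCl4, a solvent toxic to hepatocytes, at 0.6 µl per g of body weight in sunflower oil, 24 h before the livers were taken. The med23 f/f controls carried the floxed allele of Med23, a Mediator complex subunit, and the med23Δli mice carried it together with Albumin-cre, which is active in hepatocytes, so that other liver cells kept the gene. No library came from an animal without CCl4, so the comparison is of genotypes after injury and holds no measure of the injury itself.

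Serpins share a fold in which an exposed reactive centre loop serves as bait for a protease. When the protease cuts the loop, the serpin snaps into a new shape and traps the enzyme in a permanent complex. Hepatocytes secrete many of the plasma serpins, among them α1-antitrypsin and antithrombin, while members of clade B lack a classical secretion signal and act mainly inside cells. Some members no longer inhibit proteases and instead carry hormones or act as collagen chaperones.

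Values are FPKM, fragments scaled to transcript length and library size, so that levels can be compared between genes per length. Changes are log2 fold changes of FPKM + 0.1, written as med23Δli minus control, from limma fitted over the 11956 genes whose mean reached 0.5 FPKM. A gene was called where the change was over 2-fold and the Benjamini-Hochberg adjusted p of limma was under 0.05, which held for 532 genes up (4.45%) and 412 down (3.45%). Med23 itself stood at 3.42, 2.97 and 4.14 FPKM in the libraries titled wt and at 3.40, 3.40 and 2.91 FPKM in those titled med23 ko. The change was -0.11 (limma adjusted p = 0.685). A gene-level value does not resolve the deleted part of Med23, so it neither checks nor contradicts the labels. The groups rest on these labels alone, and the names med23 f/f and med23Δli used here are the study's. Hepatocyte markers summed to 25260 to 35386 FPKM in the control libraries and 22468 to 28747 FPKM in the med23Δli libraries, and 0 of 7 tested passed the adjusted p.

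Among the markers of other liver cells, all 6 endothelial markers were lower at an adjusted p under 0.05 and summed to 81.4 to 119 FPKM in controls against 43.7 to 46.9 FPKM in the med23Δli libraries. The same threshold was passed, always downward, by 1 of 8 stellate cell markers, 1 of 2 platelet markers and 1 of 3 adipocyte markers tested. It was passed by 0 of 8 macrophage markers, 0 of 4 neutrophil markers, 0 of 5 bile duct markers and 0 of 2 mesothelial markers. Ptprc, the only gene tested of the T and NK cell list, did not pass it. This gene encodes CD45, a marker of leukocytes in general. Cd3e, Cd3g and Nkg7 were below the filter, so no marker particular to T and NK cells was tested. The pancreas marker tested did not pass either, and the acinar genes Prss1, Cpa1 and Pnlip were listed at 0 throughout. The adipocyte marker that passed was Cidec (-3.24, SE 0.67, limma adjusted p = 0.0161). It was at 19.2, 77.6 and 46.7 FPKM in controls and 4.99, 9.46 and 1.63 FPKM in med23Δli libraries. The adipocyte genes Adipoq, Plin1 and Ucp1 were listed at 5.65, 2.76 and 2.29 FPKM in med23Δli replicate 2 and at no more than 0.0907 FPKM in the other libraries. Fabp4 and Adrb3 were also highest in that replicate, at 177 and 1.51 FPKM, against at most 66.3 and 0.320 FPKM elsewhere. In bulk liver, fewer cells of a type and less RNA per cell cannot be told apart.

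Of the 63 members, 29 passed the filter and were tested, 22 were detected below it with a mean of at most 0.394 FPKM, and 12 were listed at 0 in every library. Clade A held 25 members (17 tested) and clade B 27 (4 tested). The single members of clades C, D, G and H and both of clade F were tested, as were 2 of 3 in clade E and 0 of 2 in clade I. Among those tested, 2 were called up (6.90%) and 3 down (10.3%), beside 4.45% and 3.45% of all genes. Serpinb6a and Serpine2 rose, and Serpina7, Serpina3n and Serpina1e fell. Serpina1a and Serpina3m also fell at an adjusted p under 0.05, by less than 2-fold. Without the size threshold this made 7 of 29 members, 2 higher and 5 lower, beside 21.1% of all genes tested, 11.6% higher and 9.48% lower. The groups did not overlap for 3 members that were higher and 7 that were lower in the med23Δli libraries, beside 23.3% and 20.4% of all genes tested. The median log2 fold change was -0.18 over the 29 members and -0.42 over the 17 of clade A, against 0.02 over all genes tested. These counts and medians include the near-identical Serpina1 copies, whose values are not independent of each other.

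**Figure D1:**
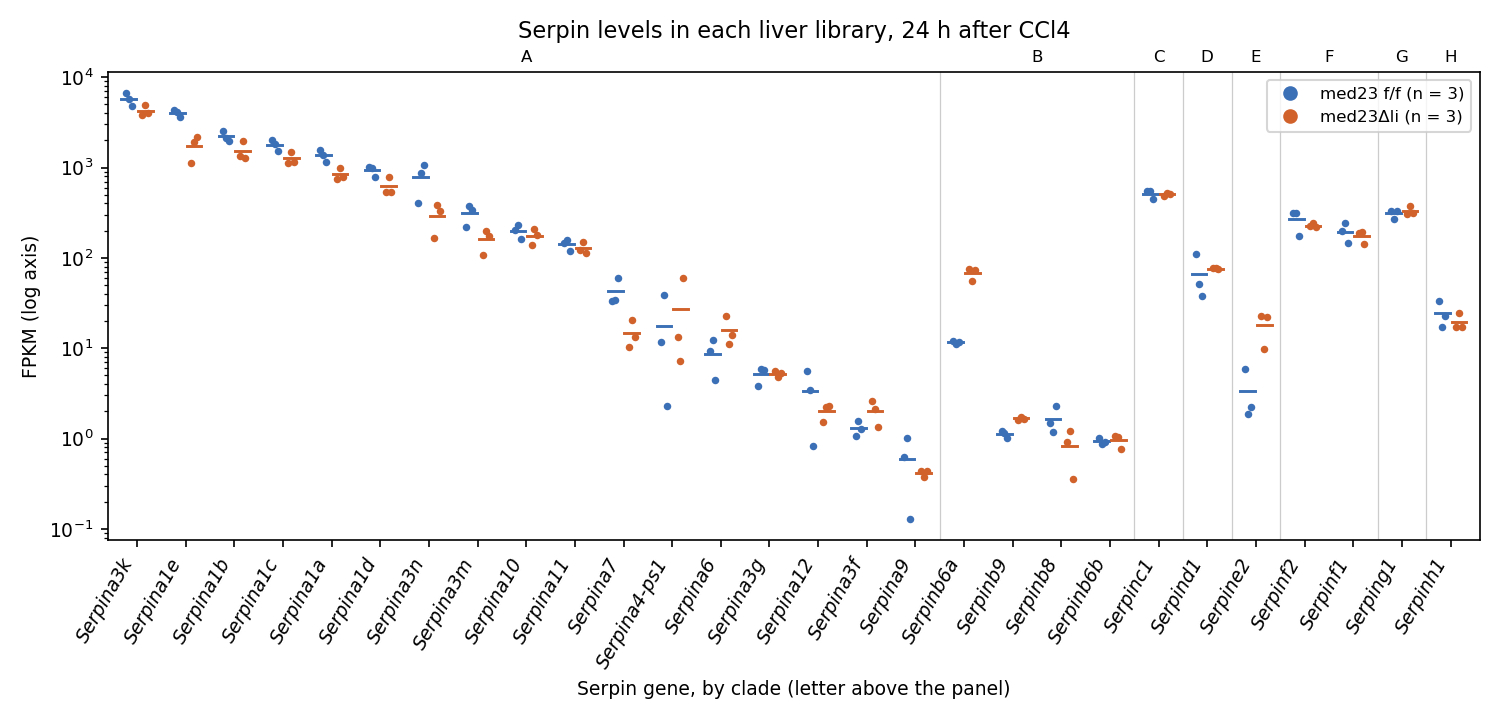
FPKM of 28 of the Serpin genes tested, on a log axis, with 1 point per library and a bar at each group's mean (n = 3), ordered by clade and level. The highest levels belong to Serpina3k and the Serpina1 copies, and the widest gap between the groups is that of Serpinb6a, at 11.02 to 12.1 FPKM in controls and 55.1 to 76.2 FPKM in med23Δli libraries.

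**Figure D2:**
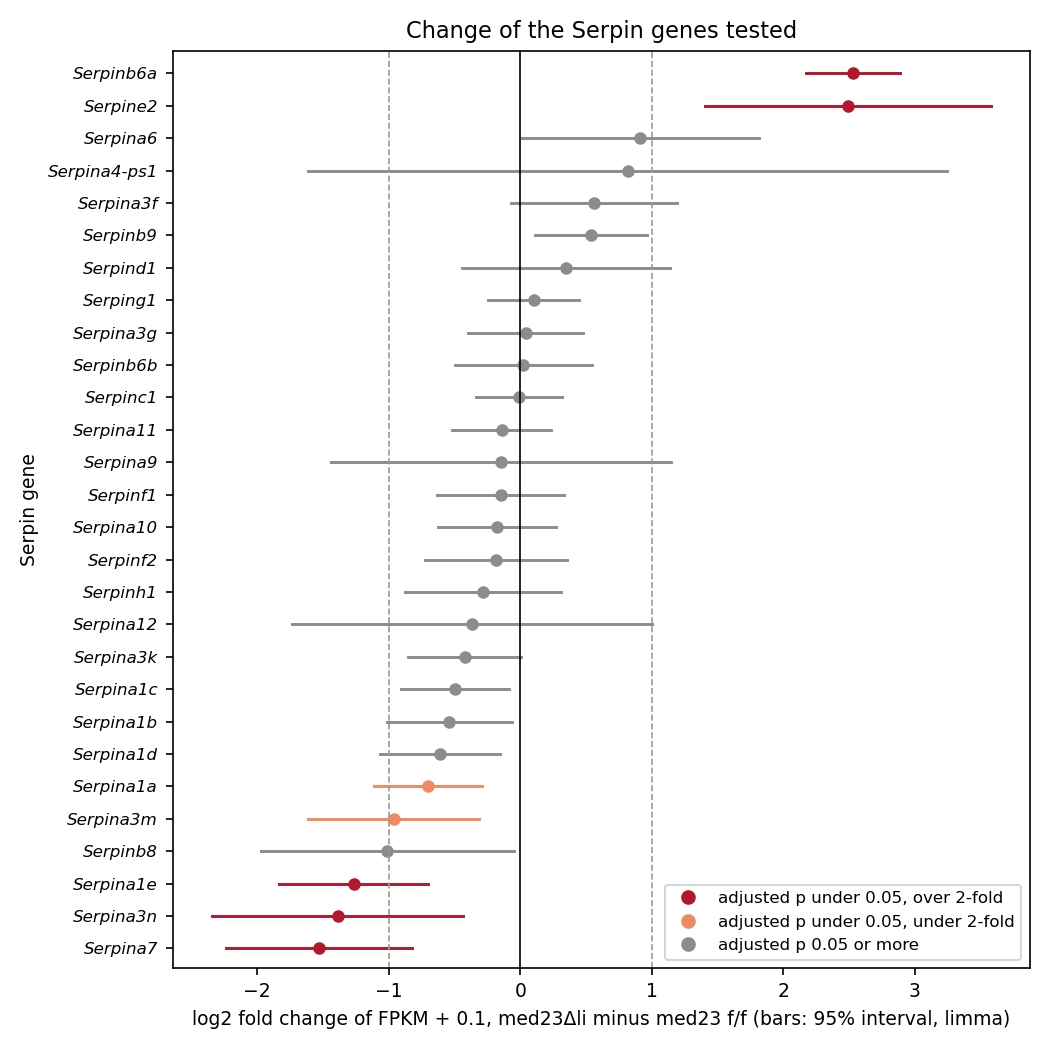
Log2 fold change of FPKM + 0.1 with its 95% interval from limma for 28 of the Serpin genes tested, sorted by size. The 5 called genes lie beyond the dashed lines at a 2-fold change, and 18 of the 28 estimates are below 0.

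After Serpina3k, the copies Serpina1a to Serpina1e had the highest mean levels of the family in both groups. They are mouse copies of the gene for α1-antitrypsin, the main plasma inhibitor of neutrophil elastase. Which proteases each copy inhibits was not measured here. The copies lie side by side on chromosome 12 with Serpina1f, which was listed at 0. Pairwise, their coding sequences were 96.3% to 98.5% identical. The stretch of 60 coding bases in which the copies differ most had 18 variable positions, where the mean over all such stretches was 4.25, and it codes for the reactive centre loop. It is shown to make plain how the copies differ in the bait and how few bases separate their reads. Sequences are on the minus strand of GRCm38 in the last coding exon, from chr12:103853757-103853816 for Serpina1a, chr12:103728324-103728383 for Serpina1b, chr12:103895094-103895153 for Serpina1c, chr12:103763762-103763821 for Serpina1d and chr12:103947100-103947159 for Serpina1e, with capitals at positions where the 5 copies are not all alike.
Serpina1a: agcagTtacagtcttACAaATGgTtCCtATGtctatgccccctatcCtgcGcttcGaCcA
Serpina1b: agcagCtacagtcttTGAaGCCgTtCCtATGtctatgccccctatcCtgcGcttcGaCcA
Serpina1c: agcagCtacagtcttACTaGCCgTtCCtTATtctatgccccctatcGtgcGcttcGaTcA
Serpina1d: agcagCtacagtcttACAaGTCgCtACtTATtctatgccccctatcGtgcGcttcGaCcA
Serpina1e: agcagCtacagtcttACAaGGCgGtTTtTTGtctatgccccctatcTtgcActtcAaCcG

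Serpina1e, the copy at chr12:103946931-103958975 on the minus strand, was measured at 4286, 4155 and 3668 FPKM in controls and at 1137, 1910.5 and 2169 FPKM in the med23Δli libraries. Every med23Δli library was below every control, and the mean fell from 4036 ± 326 to 1739 ± 537 FPKM (SD, n = 3). The log2 fold change was -1.26 (SE 0.25, limma adjusted p = 0.0132), and the adjusted p remained under 0.05 in all 15 other settings tried, with a highest value of 0.0469. The 2-fold call was lost without med23Δli replicate 1, where the change was -0.98, at an adjusted p under 0.01, and by limma's test against a 2-fold change. Serpina1a stood at 1568, 1379 and 1155 FPKM against 749, 994 and 778 FPKM, also without overlap. Its change was -0.70 (SE 0.18, limma adjusted p = 0.0305) and lay between -0.83 and -0.60 in the other settings, with an adjusted p over 0.05 in 6 of 15.

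The other 3 copies had lower means in the med23Δli libraries but did not pass the adjusted p in the fit of all 6 libraries. Serpina1d had 1018, 988 and 791 FPKM in controls and 537, 790.3 and 529.9 FPKM in med23Δli livers (-0.61, SE 0.20, limma adjusted p = 0.0627). For Serpina1c the values were 1992, 1827 and 1514 FPKM against 1129.6, 1505 and 1153 FPKM (-0.50, SE 0.18, limma adjusted p = 0.0822). Groups that did not overlap were thus found for both of these copies, with a narrow gap in each. Serpina1b was measured at 2541, 2129 and 1964 FPKM against 1355, 1989.9 and 1287 FPKM, where the second med23Δli library lay above the lowest control (-0.54, SE 0.21, limma adjusted p = 0.0974). Serpina1d passed in 3 of 15 other settings, at adjusted p of 0.0171 after quantile normalization, 0.0429 without control replicate 3 and 0.0498 without med23Δli replicate 2. Serpina1c passed in 2, at 0.0251 after quantile normalization and 0.0490 without control replicate 3.

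Because the copies are so alike, how reads were divided among them depended on the authors' software. Of the 150-base windows of each transcript, as long as a read, 92.4% were found in no other gene for Serpina1e, 83.6% for Serpina1b, 76.7% for Serpina1d, 59.3% for Serpina1a and 40.3% for Serpina1c. Summed over the copies, the level was 9092 to 11406 FPKM in controls and 4907 to 7189.7 FPKM in med23Δli libraries. This sum is not wholly free of the division of reads, since FPKM are scaled to each copy's own transcript length. Some windows are also shared with Gm8893 and, for Serpina1c, B430119L08Rik, which are outside the sum. The summed level fell by 0.79 on the log2 scale (SE 0.19, limma adjusted p = 0.0260), but by 0.25 with an adjusted p of 0.267 after quantile normalization. Fitted as separate genes after the same normalization, the 5 copies changed by -0.53 (Serpina1b) to -1.26 (Serpina1e), so the value of -0.25 belongs to the summed row, which ranked 5 to 7 from the top of the FPKM in control libraries and 6 to 10 in med23Δli libraries. The adjusted p also exceeded 0.05 when any of control replicates 1 and 2 or med23Δli replicates 1 and 3 was left out, at 0.1004, 0.0549, 0.0964 and 0.0906. Serpina1e made up 37.6%, 39.7% and 40.3% of the Serpina1 sum in controls and 23.2%, 26.6% and 36.7% in med23Δli libraries. This share did not overlap between the groups (exact two-sided permutation test, p = 0.1, the smallest that 3 against 3 libraries allow). Within the sum of the remaining 4 copies, Serpina1b, Serpina1c and Serpina1d held shares whose ranges overlapped between genotypes, while that of Serpina1a was 21.3% to 22.0% in controls and 18.8% to 20.8% in med23Δli libraries.

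**Figure D3:**
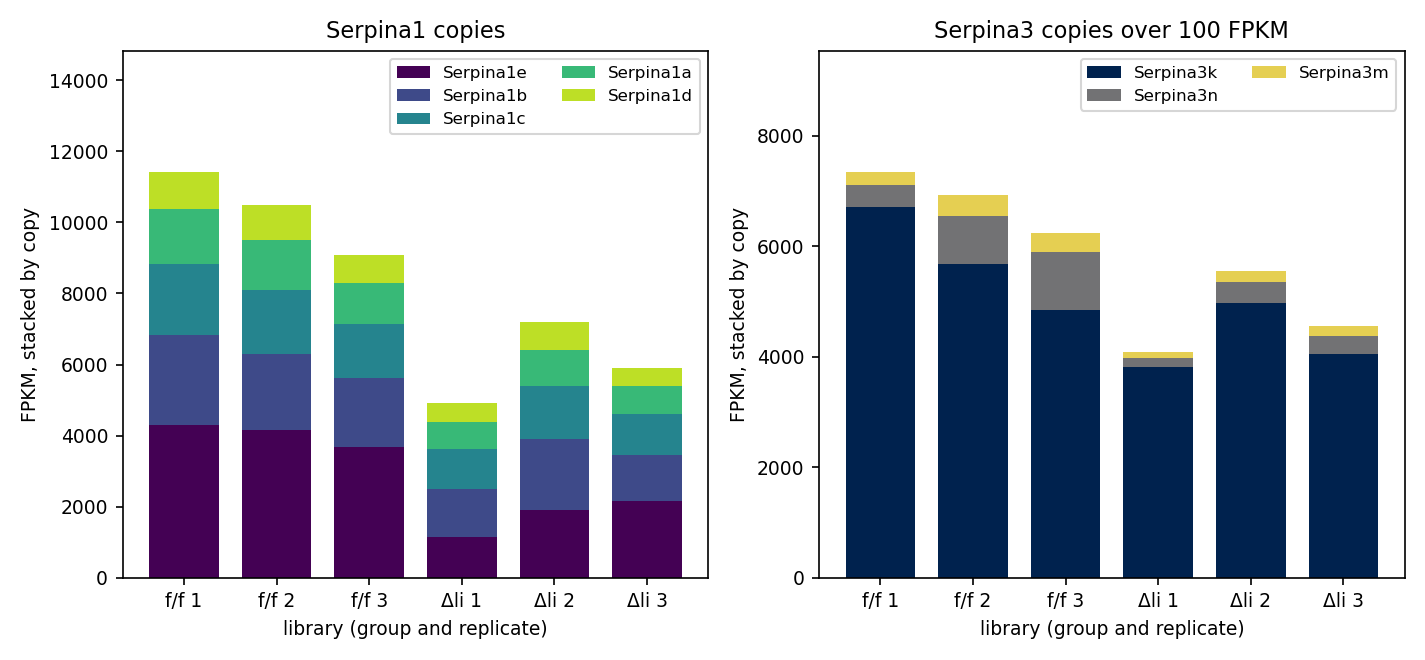
FPKM of the Serpina1 copies (left) and of the Serpina3 copies over 100 FPKM (right), stacked by copy, with 1 bar per library. The Serpina1 bars reach 9092 to 11406 FPKM in controls and 4907 to 7189.7 FPKM in med23Δli libraries, and Serpina1e is the segment that shrank most.

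The promoters of Serpina1b and Serpina1e are shown as an example of near-identical sequence in 2 copies of which Serpina1e was called and Serpina1b was not. They lie at opposite ends of the Serpina1a to Serpina1e array. In the RefSeq windows of GRCm38.p6, which run from 250 bases before to 50 bases after each annotated start, the 2 sequences shared 248 aligned bases outside gaps, of which 4 differed. The windows are chr12:103738140-103738439 for Serpina1b and chr12:103956848-103957147 for Serpina1e, both on the minus strand and offset against each other by the annotated starts. Capitals mark the substituted bases, and a short gap within the aligned stretch is not marked.
Serpina1b: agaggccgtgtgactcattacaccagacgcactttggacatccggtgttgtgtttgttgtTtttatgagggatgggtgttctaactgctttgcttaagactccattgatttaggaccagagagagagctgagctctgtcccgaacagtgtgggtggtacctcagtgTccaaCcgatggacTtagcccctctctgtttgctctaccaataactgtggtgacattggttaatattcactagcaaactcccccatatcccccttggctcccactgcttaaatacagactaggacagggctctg
Serpina1e: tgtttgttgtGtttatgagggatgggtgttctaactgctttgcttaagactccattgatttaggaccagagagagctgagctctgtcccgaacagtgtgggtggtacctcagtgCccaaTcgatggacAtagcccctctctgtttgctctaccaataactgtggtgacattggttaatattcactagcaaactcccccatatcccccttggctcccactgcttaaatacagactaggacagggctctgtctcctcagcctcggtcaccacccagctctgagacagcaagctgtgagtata
The difference between the changes of these genes, -0.54 and -1.26, was not tested as such.

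The Serpina3 group, mouse relatives of α1-antichymotrypsin and an acute phase serpin family in rodents, has 11 copies on chromosome 12, of which 5 were tested. Serpina3k was the most abundant Serpin gene in both groups, at 6705, 5680.2 and 4841 FPKM in controls and 3811, 4969 and 4051 FPKM in med23Δli libraries. These ranges overlapped, and the change was -0.42 (SE 0.19, limma adjusted p = 0.140). Serpina3n, at chr12:104406729-104414329 on the plus strand, was measured at 409, 864 and 1062 FPKM against 165, 384 and 328 FPKM. Its control libraries were spread over more than the gap between the groups, with a lowest control only just above the highest med23Δli library. The fall of 1.39 on the log2 scale (SE 0.41, limma adjusted p = 0.0488) kept its direction in all 15 other settings, at -1.80 to -1.02, but the adjusted p exceeded 0.05 in 9 of them and ranged from 0.00818 to 0.141. Serpina3m had 221, 375 and 337 FPKM against 107, 200.5 and 176 FPKM, without overlap. Its change of -0.96 (SE 0.28, limma adjusted p = 0.0462) lay between -1.19 and -0.69 in the other settings, with an adjusted p over 0.05 in 7 of 15.

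The remaining copies of this group were low. Serpina3g, which is expressed in lymphoid and myeloid cells and acts inside them, was at 3.82, 5.94 and 5.67 FPKM in controls and 5.53, 4.84 and 5.25 FPKM in med23Δli livers (0.04, SE 0.19, limma adjusted p = 0.895). Serpina3f was at 1.06, 1.55 and 1.28 FPKM against 2.57, 2.13 and 1.33 FPKM (0.56, SE 0.27, limma adjusted p = 0.172). Serpina3a, Serpina3b, Serpina3c, Serpina3h and Serpina3i lay below the filter with overlapping ranges, and Serpina3j was listed at 0. Summed over the group, the level was 6248 to 7340.1 FPKM in controls and 4093 to 5561 FPKM in med23Δli libraries, a change of -0.54 (SE 0.17, limma adjusted p = 0.0587), or -0.30 (adjusted p = 0.113) after quantile normalization. Nearly all 150-base windows of Serpina3k (99.7%), Serpina3m (99.7%) and Serpina3n (100%) were found in no other gene, although the annotated span of Serpina3m includes that of Serpina3k on the same strand.

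Together the Serpina1 and Serpina3 copies held 89.9% to 90.8% of all Serpin FPKM in controls and 84.0% to 86.9% in med23Δli libraries. The family as a whole took 2.81% to 3.24% of a control library's FPKM and 1.76% to 2.25% of a med23Δli library's (exact two-sided permutation test, p = 0.1, the smallest possible). Without those copies, the remaining members summed to 1548 to 1974 FPKM and 1715 to 1928 FPKM, ranges that overlapped (exact permutation test, p = 0.8). Acute phase genes that are not serpins gave a median change of -0.34 over the 18 tested, and 16 did not pass the adjusted p. Of the others, beside 9.48% of all genes lower and 11.6% higher, Saa3 fell by 2.14 on the log2 scale (SE 0.36, limma adjusted p = 0.00847) and Saa4 rose by 1.88 (SE 0.29, limma adjusted p = 0.00648). Saa1, the classic mouse acute phase gene, stood at 12620.0, 12479 and 23878 FPKM in controls and 2472, 7174 and 10294 FPKM in med23Δli libraries (-1.45, SE 0.51, limma adjusted p = 0.0773).

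Hormone carriers of clade A are serpins that no longer act as inhibitors. Serpina7, the thyroxine-binding globulin gene at chrX:139079257-139085236 on the minus strand, was measured at 33.5, 34.0 and 60.1 FPKM in controls and 10.2, 20.6 and 13.3 FPKM in med23Δli libraries. All 3 med23Δli values were below the lowest control, and the mean fell from 42.5 ± 15.2 to 14.7 ± 5.35 FPKM (SD, n = 3). The log2 fold change was -1.53 (SE 0.31, limma adjusted p = 0.0147), the largest decrease in the family by point estimate. It missed the threshold without med23Δli replicate 1 (adjusted p = 0.0558) or replicate 3 (adjusted p = 0.0625). Serpina6, the corticosteroid-binding globulin gene, had 9.35, 12.4 and 4.45 FPKM against 22.5, 11.1 and 14.0 FPKM. Its ranges overlapped, and its point estimate had the opposite sign (0.91, SE 0.39, limma adjusted p = 0.129).

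Among the plasma inhibitors of coagulation and fibrinolysis, Serpinc1, Serpina10, Serpind1 and Serpinf2 did not pass the adjusted p with all 6 libraries. Serpinc1 encodes antithrombin, which blocks thrombin and factor Xa, and stood at 544, 548 and 444 FPKM in controls and 480.4, 529 and 508 FPKM in med23Δli libraries. The change was -0.01, with a 95% interval from -0.34 to 0.31 (limma adjusted p = 0.961). Only 42.1% of its windows were found in no other gene, since its longest transcript overlaps Zbtb37 on the other strand. Serpina10, the protein Z-dependent inhibitor of factor Xa, was at 203, 231 and 162 FPKM against 140.0, 206 and 181 FPKM (-0.18, 95% interval -0.63 to 0.27, limma adjusted p = 0.535). Serpind1, or heparin cofactor II, was spread in controls at 111, 51.0 and 38.2 FPKM and tight in med23Δli libraries at 76.4, 76.3 and 75.7 FPKM (0.34, SE 0.34, limma adjusted p = 0.490). Single controls decided this value, which was 0.79 (adjusted p = 0.0277) without control replicate 1 and 0.02 without control replicate 3.

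Serpinf2 encodes α2-antiplasmin, which inhibits plasmin. It read 315, 314 and 175 FPKM in controls and 223, 244 and 217 FPKM in med23Δli libraries (-0.18, 95% interval -0.72 to 0.36, limma adjusted p = 0.602). Without control replicate 3, its lowest control, the change was -0.46 (adjusted p = 0.0392). Its neighbour on chromosome 11, Serpinf1, encodes the antiangiogenic factor PEDF and had 199, 241 and 147 FPKM against 186, 193 and 143 FPKM (-0.15, 95% interval -0.63 to 0.34, limma adjusted p = 0.636). Serping1, the inhibitor of the first complement proteases and of plasma kallikrein, stood at 326, 273 and 333 FPKM against 305, 378 and 317 FPKM (0.10, 95% interval -0.24 to 0.45, limma adjusted p = 0.648). Serpina11, which has no settled function, was at 147, 158 and 121 FPKM against 123, 149.7 and 114 FPKM (-0.14, SE 0.16, limma adjusted p = 0.557). For each of these the groups overlapped, and the intervals exclude a 2-fold change in either direction for Serpinc1, Serpina10, Serpinf1, Serpinf2 and Serping1.

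Clade E holds inhibitors of serine proteases that act at the cell surface and in the matrix. Serpine2, or protease nexin 1, lies at chr1:79794197-79861180 on the minus strand and was measured at 5.96, 1.87 and 2.23 FPKM in controls and 22.6, 9.73 and 22.1 FPKM in med23Δli libraries. All med23Δli values exceeded the highest control, and the mean rose from 3.35 ± 2.26 to 18.2 ± 7.31 FPKM (SD, n = 3). The log2 fold change was 2.49 (SE 0.47, limma adjusted p = 0.0120), with adjusted p of 0.0506 without med23Δli replicate 1 and 0.0582 without replicate 3. Serpine3 was below 0.0873 FPKM in 5 libraries and at 0.0873 FPKM in control replicate 2.

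Serpinb6a, an intracellular inhibitor that binds cathepsin G, showed the largest increase by point estimate. It lies at chr13:33917918-34002794 on the minus strand. Levels were 12.1, 11.02 and 11.6 FPKM in controls and 76.2, 55.1 and 72.7 FPKM in med23Δli libraries, so that the lowest med23Δli value was several times the highest control. The mean rose from 11.6 ± 0.563 to 68.0 ± 11.3 FPKM (SD, n = 3), a ratio of 5.86. The log2 fold change was 2.53 (SE 0.15, limma adjusted p = 0.000322), and the adjusted p was between 0.000139 and 0.00635 in all 15 other settings. Serpinb6a contributed 73.5% to 77.5% of the FPKM of the tested clade B members in controls and 93.3% to 96.3% in med23Δli libraries. Of its windows, 94.0% were found in no other gene.

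The library kit does not mark strand, and 3 genes on the opposite strand overlap the annotated span of Serpinb6a. Nqo2 was at 11.8, 6.24 and 8.74 FPKM in controls and 11.7, 12.3 and 13.2 FPKM in med23Δli libraries (0.51, SE 0.22, limma adjusted p = 0.134). Ripk1 gave a change of 0.27 (SE 0.19, limma adjusted p = 0.321), and the antisense RNA 1110046J04Rik stayed below the filter. Both estimates were smaller than that of Serpinb6a, and the groups overlapped for all 3 of these genes.

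The RefSeq promoter window of the upstream start of Serpinb6a, chr13:34002745-34003044 on the minus strand of GRCm38.p6, is shown because this gene carries the widest separation among the members tested. It holds 2 matches to TTCNNNGAA, the consensus of STAT factors, which are in capitals. The motif reads the same on both strands.
Serpinb6a: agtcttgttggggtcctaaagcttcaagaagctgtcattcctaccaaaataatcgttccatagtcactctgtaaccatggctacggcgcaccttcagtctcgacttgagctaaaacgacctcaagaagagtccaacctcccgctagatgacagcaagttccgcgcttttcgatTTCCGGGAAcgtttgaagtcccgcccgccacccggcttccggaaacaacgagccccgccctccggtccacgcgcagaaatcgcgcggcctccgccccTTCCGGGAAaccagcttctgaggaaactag
The window of a downstream start, chr13:33936034-33936333, holds no match. The STAT motif was present in 11 of 61 windows from 52 members (18.0%) and in 8.30% of all 32851 promoter windows. The nuclear receptor core motif AGGTCA was in 19 member windows (31.1%) and in 16.3% of all windows, and the C/EBP core TTNNGCAA in 17 (27.9%) and 10.8%, both searched on either strand. Among the 25 windows of tested members the STAT, nuclear receptor and C/EBP motifs were in 6, 5 and 10. The AP-1 site TGANTCA (19.7% of member windows against 7.81%) and the TATA box TATAAA (29.5% against 13.6%) were likewise more frequent among members, so the excess was not particular to any of these motifs. Many member windows come from recent gene copies with shared sequence, so these counts are descriptions of related promoters. None of these motifs was found in the Serpine2 or Serpina3n windows, and the C/EBP core was in those of Serpina7 and Serpina1e but also in those of Serpina1a, Serpina1b, Serpina1d, Serpina12 and Serpinc1.

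Serpinb6a closes a cluster of 15 Serpinb genes that spans 1160703 bases of chromosome 13, from Serpinb1a to Serpinb6a. The cluster was singled out after its values were seen, so its count is a description. In 8 of the 15, all med23Δli libraries were above all controls, and in 0 of 15 they were below. Among all genes the share that was higher without overlap was 23.3% of those tested and 6.95% of the 5796 detected below the filter. Apart from Serpinb6a the levels were low. Serpinb9, an inhibitor of granzyme B that protects cells from their own cytotoxic granules, was at 1.22, 1.14 and 1.00 FPKM in controls and 1.62, 1.74 and 1.65 FPKM in med23Δli libraries (0.54, SE 0.18, limma adjusted p = 0.0714, and 0.0352 without a variance trend). Serpinb6b, a paralogue of Serpinb6a with 85.9% identity in coding sequence, was at 1.00, 0.879 and 0.907 FPKM against 1.06, 1.03 and 0.772 FPKM (0.02, SE 0.23, limma adjusted p = 0.951).

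Below the filter, Serpinb1b, a relative of the neutrophil elastase inhibitor Serpinb1a, was listed at 0.120, 0.0293 and 0.0950 FPKM in controls and at 0.720, 0.544 and 0.853 FPKM in med23Δli libraries. Serpinb9g stood at 0.00862, 0 and 0 FPKM against 0.252, 0.372 and 0.690 FPKM. Serpinb9b was at 0.0478, 0.0253 and 0 FPKM against 0.195, 0.220 and 0.133 FPKM. All 3 of these genes were higher in every med23Δli library, and they passed the call in a fit without a filter (limma adjusted p = 0.0112, 0.0118 and 0.0230), where 2.98% of 17752 genes were called up. Their fitted sizes depend on the 0.1 FPKM added before the log.

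Serpinb9c, Serpinb9e and Serpinb9f were listed at 0 in all controls and above 0 in all med23Δli libraries, at 0.0252 to 0.0651, 0.0732 to 0.512 and 0.0170 to 0.0811 FPKM. Serpinb9f shares sequence with its neighbours, since 61.4% of its windows and 69.1% of those of Serpinb9g were found in no other gene, and the split of such few reads is uncertain. Serpinb1a itself, the inhibitor of neutrophil granule proteases, was at 0.167, 0.254 and 0.159 FPKM against 0.111, 0.614 and 0.270 FPKM and overlapped. Serpinb6d and Serpinb6e were listed at 0 throughout, and Serpinb1c, Serpinb9d and Serpinb6c were above 0 in at most 2 libraries. The neutrophil and macrophage markers, cells in which several clade B serpins are known, had summed levels of 42.1 to 135 and 230 to 272 FPKM in controls and 39.7 to 99.3 and 241 to 265 FPKM in med23Δli libraries. These ranges overlapped, and the part of such cells in the cluster's values was not tested.

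**Figure D4:**
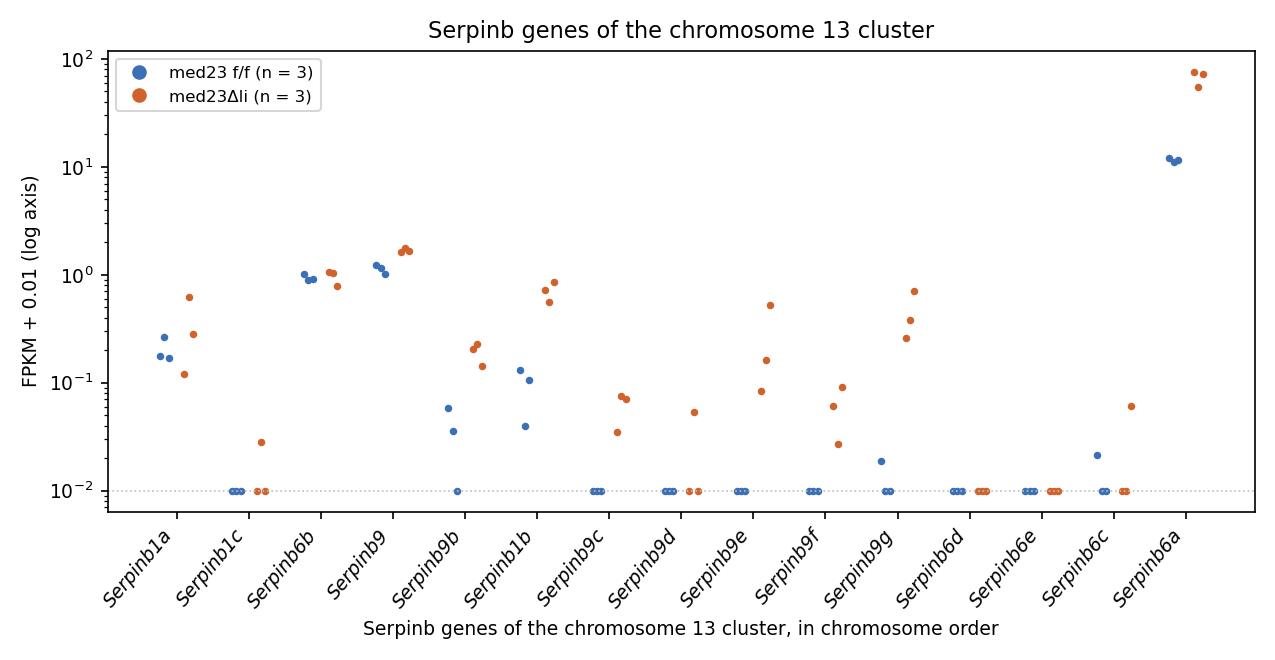
FPKM + 0.01 on a log axis for the 15 Serpinb genes of the chromosome 13 cluster in chromosome order, with 1 point per library and points on the dotted line listed at 0. In 8 genes all 3 med23Δli points lie above all 3 control points, and Serpinb6a is the only gene of the cluster above 10 FPKM.

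Clade B has a further cluster on chromosome 1, which was nearly silent. Serpinb8, a furin inhibitor in platelets and other cells, was its only tested gene, at 1.498, 1.19 and 2.28 FPKM in controls and 0.908, 1.20 and 0.358 FPKM in med23Δli livers. The estimate was -1.01 with overlapping groups (SE 0.42, limma adjusted p = 0.118). Platelet markers summed to 5.47 to 7.90 FPKM in controls and 2.20 to 5.56 FPKM in med23Δli libraries, and their part in the Serpinb8 value was not tested. Serpinb2, the plasminogen activator inhibitor of macrophages and keratinocytes, was listed at 0.00837, 0 and 0 FPKM against 0.0465, 0.0997 and 0.0570 FPKM. Of the 22 members below the filter, 7 were higher without overlap and 0 were lower, beside 6.95% and 7.26% of all genes below it.

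The last tested members had separate roles. Serpinh1 encodes HSP47, the collagen chaperone of the endoplasmic reticulum, and stood at 33.4, 17.1 and 22.6 FPKM in controls and 17.1, 24.4 and 17.1 FPKM in med23Δli libraries. The groups overlapped (-0.29, SE 0.26, limma adjusted p = 0.446), as did the summed stellate cell markers at 89.7 to 112 and 71.5 to 95.5 FPKM. Serpina12, or vaspin, an adipokine, was at 5.65, 3.48 and 0.827 FPKM against 1.52, 2.23 and 2.27 FPKM. Its controls alone covered the whole range (-0.37, SE 0.59, limma adjusted p = 0.682). Without control replicate 3 the change was -1.13 (adjusted p = 0.0252), which met the call. Serpini1, or neuroserpin, was below the filter at 0.680, 0.227 and 0.651 FPKM against 0.308, 0.269 and 0.0851 FPKM, with overlap. Serpina9 and the pseudogene Serpina4-ps1 overlapped as well, the latter between 2.26 and 59.7 FPKM over the 6 libraries (0.82, SE 1.05, limma adjusted p = 0.600).

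Proteases that serpins trap were measured in the same libraries. Of 24 tested, 1 was higher and 3 lower at an adjusted p under 0.05, beside 11.6% and 9.48% of all genes, 20 did not pass, and the median change was -0.16, against 0.02 over all genes. Plasma kallikrein, Klkb1, a target of Serping1, rose from 4.30, 3.39 and 2.27 FPKM to 10.3, 11.8 and 12.1 FPKM, without overlap (1.79, SE 0.23, limma adjusted p = 0.00362). The 3 that fell were F12, coagulation factor XII (-0.59), and the activators of hepatocyte growth factor Hgfac (-0.70) and Hpn (-0.57). Prothrombin, F2, the precursor of the thrombin that antithrombin blocks, had an estimate of -0.37 (SE 0.15, limma adjusted p = 0.122), and plasminogen, Plg, of -0.02 (limma adjusted p = 0.946). Elane and Ctsg, neutrophil proteases that clade A and B serpins inhibit, were below the filter.

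Receptors, cofactors and cargo formed the last list, with 3 of 20 tested higher, 2 lower and a median change of -0.12. These counts are close to the 11.6% and 9.48% of all genes tested. Vldlr and Lrp1, endocytic receptors, clear complexes of serpins with proteases. Vldlr was at 0.625, 0.255 and 1.76 FPKM in controls and rose to 5.67, 3.44 and 4.62 FPKM in med23Δli libraries (2.55, SE 0.54, limma adjusted p = 0.0170). Lrp1 rose from 34.4, 34.0 and 29.0 FPKM to 43.2, 49.5 and 49.5 FPKM (0.55, SE 0.13, limma adjusted p = 0.0265). Procr, the protein C receptor, rose by 2.17 on the log2 scale (SE 0.34, limma adjusted p = 0.00704), while vitronectin, Vtn, a plasma and matrix protein, had an estimate of -0.09 (limma adjusted p = 0.700).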

How the data were processed

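RNA of whole liver was sequenced in pairs of 150-base reads from libraries that do not mark strand. Per the labels, the authors' processing used FastQC, TopHat and Cuffdiff with genome build mm10, with versions and gene annotation not given in the sources used here. The deposited values are FPKM per gene and library, normalized by the authors. Read numbers per library cannot be recovered from them, so the depth behind each value is unknown here, although the study's methods state a median number of reads per sample, and no counting interval was given. The authors' own columns of group means, fold changes and p-values were not used, and 0 columns of samples were left unmapped.

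Genes whose mean across all 6 libraries reached 0.5 FPKM (11956 of 24346) were fitted as log2(FPKM + 0.1) with limma 3.58.1 in R 4.3.3 (lmFit, eBayes with a trend), with group as the only term and Benjamini-Hochberg adjustment over all genes tested. A call needed a change over 2-fold and an adjusted p under 0.05. The procedure was tested on simulated data. Single quantities were compared by an exact two-sided permutation test, which for 3 against 3 libraries cannot go below 0.1. Serpina1 and Serpina3 copies were also summed in FPKM before the log. P-values measure the spread between these libraries, which the labels number but do not trace to separate animals in words.

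Values in every library were printed for members with an adjusted p under 0.05, with a mean of 100 FPKM or more, for tested Serpina1 and Serpina3 copies, and for a list of well known members, and the low genes of the chromosome 13 cluster and the genes overlapping Serpinb6a were added after their values were seen. The lists of proteases, of cofactors and receptors, of acute phase genes and of markers of 11 cell types were described by counts and medians. Members and lists were chosen with earlier results of these data known. Alternatives were another pseudocount, filter, scaling, variance model, threshold, a replicate block and leaving out each library. Gene positions and transcripts came from GENCODE M21 on GRCm38, the same assembly as mm10, and promoters from RefSeq on GRCm38.p6, where 52 of 63 members matched by symbol. Uniqueness was the share of 150-base windows of a member's longest protein-coding transcript found in no other gene's transcripts on either strand. Some genes counted in the totals are not reported here.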

Additional observations from a re-analysis of the deposited data

How the results depend on the processing

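Serpinb6a was called under all 15 other settings that refit the members. Called up were 1 member at an adjusted p under 0.01, 1 by limma's treat against 2-fold, 5 without a filter, and 1 to 2 with a library left out (1 without med23Δli replicate 1 or 3). Called down were 5 members at any size, 0 at an adjusted p under 0.01, 0 by treat and 0 to 4 with a library left out (0 without med23Δli replicate 1, 1 without replicate 3), where limma's unadjusted p was under 0.05 for 10 lower members with all libraries, 7 without that replicate and 0 by treat. Over all genes tested, the calls up were 1384 at any size, 285 at 0.01, 36 by treat and 321 to 718 with a library left out. The calls down were 1133, 186, 12 and 255 to 531 in the same order, and 229 with a pseudocount of 1 FPKM.

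The summed Serpina1 copies changed by -0.25 after quantile normalization, where the separate copies changed by -0.53 to -1.26, and by -0.93 to -0.66 with a library left out. The summed Serpina3 copies changed by -0.30 (limma adjusted p = 0.113) after quantile normalization, by -0.54 (limma adjusted p = 0.0497, now under the threshold) with robust eBayes and by -0.66 to -0.44 with a library left out. The cause was not tested. Signs turned for 8 members, none of which passed the adjusted p with all libraries. With a library left out these were Serpina12 (-1.13 to 0.19), Serpina3g (-0.16 to 0.16, with -0.0030 among them), Serpina4-ps1 (-0.24 to 1.78, with -0.04), Serpina9 (-0.81 to 0.35, with 0.02), Serpinb6b (-0.052 to 0.15, with -0.01 and -0.03), Serpinc1 (-0.11 to 0.040, with 0.03 and 0.02) and Serpinf1 (-0.34 to 0.017). Median centring gave Serpinb6b -0.0051, and quantile normalization gave Serping1 -0.048.

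Replicate numbers were not treated as pairs in the main fit. Same-numbered libraries correlated at -0.02, -0.05 and -0.12 in their deviations from the group means. With 3 libraries per group, these values cannot tell whether the numbers pair the samples. With the replicate block 2 members were called up and 3 down, and 477 and 353 genes in all. The scalings moved the median of all genes by less than 0.1. The depth of single libraries could not be assessed from FPKM, and treat was run for counts only.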
